A study of Mus musculus with 4 samples.

Results

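The genes described here are 9 immediate-early genes, namely Fos, Fosb, Jun, Junb, Egr1, Atf3, Ier2, Klf4 and Klf6. They were chosen by name, with earlier results of these data known, and all 9 were present among the 29161 genes of the deposited count table. Their levels were followed in 290 single cells that had been sorted from mouse enteroids, which are epithelial mini-guts grown from intestinal crypts. All enteroids carried the Neurog3eYFP/+ reporter on the CD1 background and came from female mice, so no group lacks the reporter allele. Cells of the duodenum filled 3 plates, of which replicate 1 came from a mouse of 39 weeks and replicates 2 and 3 from mice of 12 weeks. Cells of the jejunum filled 1 plate, from a mouse of 12 weeks. Cultures were kept for 5 to 8 days with R-spondin-1, Noggin and 50 ng/mL EGF, a growth factor whose signalling is a textbook inducer of these genes. They were digested with TrypLE for 20 min at 37 °C, and living eYFP-positive cells were sorted at 1 cell per well, 92 per plate with 4 wells left empty. The reporter is 1 allele of Neurog3 and labels both cells that transcribe Neurog3 and descendants in which the fluorescent protein persists. No plate of undigested or unsorted cells was analysed here, so each level below is a level after digestion and sorting.

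Immediate-early genes are transcribed within minutes of a stimulus, without new protein synthesis, when kinase cascades activate factors already bound or waiting in the cell, such as SRF with its ELK partners and CREB. Fos and Fosb encode basic leucine zipper proteins that pair with the products of Jun and Junb to form the AP-1 transcription factor. Egr1 encodes a zinc finger factor, and Atf3 encodes a basic leucine zipper factor of the stress response. Klf4 and Klf6 encode Krüppel-like factors, and Klf4 is also a differentiation factor of goblet cells. Ier2 encodes a short nuclear protein. The transcripts are short-lived, and the genes are widely known to respond to enzymatic tissue dissociation as well as to hormones, depolarisation and growth factors.

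Promoter sequence is shown for the 4 members that passed the main test below (Fos, Fosb, Jun and Klf6) and for Klf4, whose level did not follow theirs. Each line gives the 250 bases before the RefSeq transcription start (build GRCm38.p6), 5′ to 3′ on the gene's strand. Capitals mark matches to the motifs searched.
Fos, chr12:85473640-85473889, plus strand: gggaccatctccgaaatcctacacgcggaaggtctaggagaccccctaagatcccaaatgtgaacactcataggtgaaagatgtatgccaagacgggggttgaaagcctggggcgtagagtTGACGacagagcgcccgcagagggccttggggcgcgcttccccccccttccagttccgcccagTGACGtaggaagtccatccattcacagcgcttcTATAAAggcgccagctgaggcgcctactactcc
Fosb, chr7:19310046-19310295, minus strand: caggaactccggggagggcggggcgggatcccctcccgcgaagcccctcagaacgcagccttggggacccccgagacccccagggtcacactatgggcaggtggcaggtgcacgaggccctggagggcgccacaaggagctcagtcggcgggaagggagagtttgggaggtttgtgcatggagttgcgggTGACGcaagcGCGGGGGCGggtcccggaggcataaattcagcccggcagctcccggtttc
Jun, chr4:95052223-95052472, minus strand: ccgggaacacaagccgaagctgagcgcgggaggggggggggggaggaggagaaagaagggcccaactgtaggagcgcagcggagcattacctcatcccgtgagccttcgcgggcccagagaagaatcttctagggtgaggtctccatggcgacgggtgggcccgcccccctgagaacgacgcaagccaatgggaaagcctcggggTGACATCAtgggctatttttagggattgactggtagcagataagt
Klf6, chr13:5861239-5861488, plus strand: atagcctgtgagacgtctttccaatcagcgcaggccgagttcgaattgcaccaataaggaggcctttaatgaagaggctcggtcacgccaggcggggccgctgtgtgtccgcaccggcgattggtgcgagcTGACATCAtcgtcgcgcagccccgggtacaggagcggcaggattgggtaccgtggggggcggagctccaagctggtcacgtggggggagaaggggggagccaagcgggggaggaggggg
Klf4, chr4:55532476-55532725, minus strand: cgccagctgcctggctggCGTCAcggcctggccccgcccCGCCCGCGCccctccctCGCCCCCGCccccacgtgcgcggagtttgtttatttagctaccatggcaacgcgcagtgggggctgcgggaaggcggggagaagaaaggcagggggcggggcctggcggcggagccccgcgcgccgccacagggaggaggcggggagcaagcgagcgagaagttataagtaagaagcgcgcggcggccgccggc

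Windows were read for 7 of the 9 members, and none for Egr1 and Ier2. Member windows on chromosome 18, where Egr1 lies, were left out of the search. The windows of all genes used for comparison were not filtered in this way. The core of the cAMP response element, TGACG on either strand, was present in 5 of the 7 windows (Fos, Fosb, Junb, Atf3 and Klf4), against 17.9% of 32536 distinct windows of the same length. In Fos it began 129 and 66 bases before the start, and a TATAAA box, searched on the gene's strand only, began 33 bases before it. TATAAA was found in 7.55% of all windows. Jun and Klf6 instead held TGACATCA, a variant of that element, beginning 45 and 119 bases before the start, respectively. That variant occurred in 2.84% of all windows. The EGR motif GCGNGGGCG was found in Fosb and, at 2 places, in Klf4, against 4.74% of all windows. None of the 7 windows held the full element TGACGTCA (1.56% of all windows, and containing TGACG on both strands), the AP-1 motif TGANTCA (6.73%) or a CArG box, the SRF site (1.48%). A match is a match of letters, and sites farther upstream were not searched.

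The table held 72, 83 and 72 cells for duodenum replicates 1 to 3 and 63 for jejunum replicate 1, of 368 sorted. Cells held 202711 to 2312044 counts, with plate medians from 321534 to 678124, lowest in duodenum replicate 1 and highest in the jejunum plate. Levels are in CPM, the counts of a gene scaled to one common total per cell or group of cells, so that cells of different depth can be compared. Whether molecular indices had been used to collapse copies was not given in the sources used here, so intervals cover counting error only. Low counts of a gene in a well cannot be read as expression in these plates. In duodenum replicate 3 a single well held 134654 of 135725 counts of the hormone gene Gip, and the other wells still had a median of 10. In the 4 gene and plate combinations examined (Gip in 3 plates, Sst in 1), the median of the other wells was 0.00395% to 0.117% of the plate's counts of that gene. At the highest of these shares, which came from Sst in duodenum replicate 2, a well of median depth would hold 3.81 to 116 CPM of a member, depending on the gene and plate. Cells are therefore counted at 100 CPM or more, which lies above that level for each member and plate except Fos in duodenum replicate 2 (116 CPM). Wells of less than median depth could exceed it too, and no share of cells at a lower count is given.

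**Figure D1:**
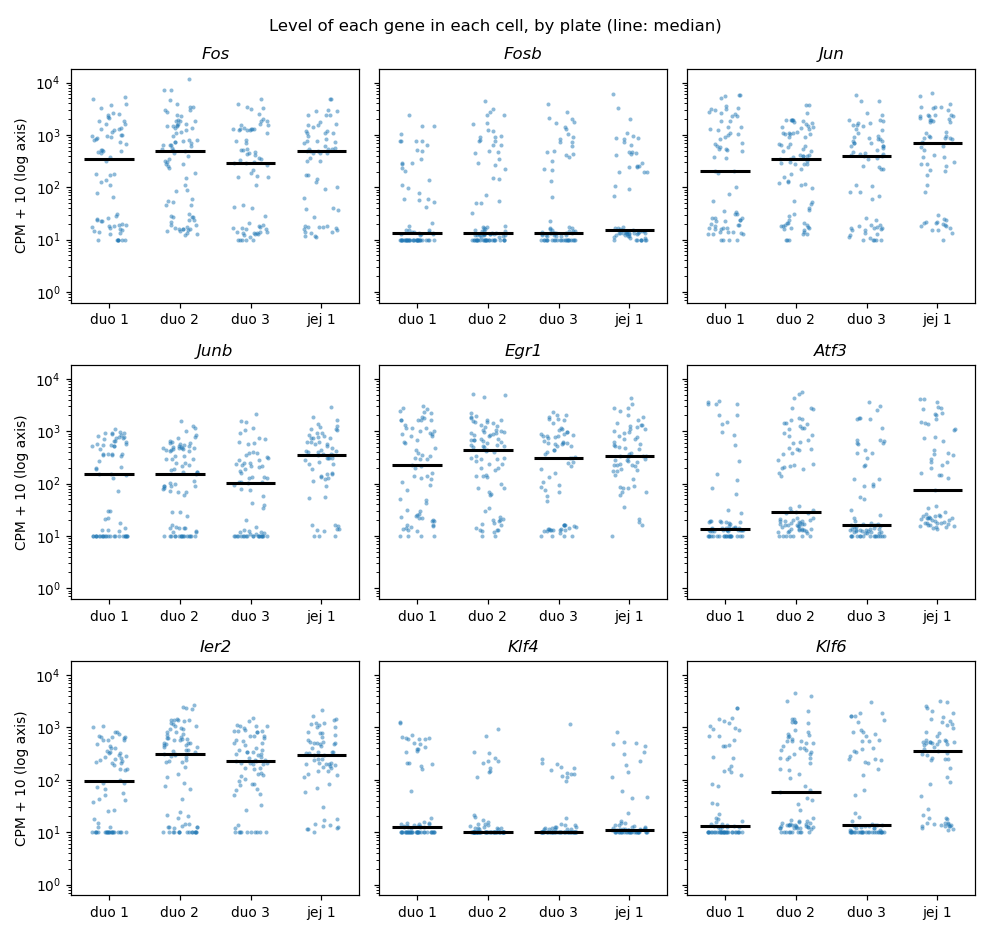
CPM of each of the 9 genes in each cell (vertical log axis, CPM plus 10), by plate (duo 1 to duo 3, duodenum replicates 1 to 3; jej 1, jejunum replicate 1), 1 point per cell, with black lines at the medians. In all 9 panels the highest cell of each plate is at 794 CPM or more and the lowest cell at 3.44 CPM or less.

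Among single cells of a plate, each member ran from near 0 to at least 794 CPM. Fos had a median of 336 CPM in duodenum replicate 1 (range 0 to 5347), 476 in replicate 2 (2.05 to 11611), 284 in replicate 3 (0 to 4805) and 477 in the jejunum plate (1.05 to 4926). Jun, which encodes the AP-1 partner of Fos, had medians of 196, 337, 395 and 689 CPM in the same order, with highest cells of 5824, 3703, 5823 and 6298 CPM. The 4 plates overlapped almost completely for both genes, as the plot of CPM by cell and plate shows.

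Fos reached 100 CPM in 59.7%, 65.1%, 61.1% and 66.7% of the cells of the 4 plates. Other members were concentrated in fewer cells. Fosb reached 100 CPM in 18 of 72, 26 of 83 and 23 of 72 cells of duodenum replicates 1 to 3 and in 23 of 63 cells of the jejunum plate, while its medians were 3.11, 3.47, 3.43 and 4.99 CPM. Those medians lie below the 17.4 to 39.6 CPM of Fosb that other wells could supply at the share measured for Sst. Klf4 reached 100 CPM in 29.2%, 14.5%, 16.7% and 17.5% of cells, with medians of 2.43, 0, 0 and 1.06 CPM. Atf3 reached 100 CPM in 20.8%, 44.6%, 30.6% and 49.2% of cells and Klf6 in 31.9%, 45.8%, 38.9% and 65.1%. For both genes the jejunum plate, which was also the deepest, had the highest share and duodenum replicate 1, the shallowest, the lowest. Egr1 reached 100 CPM in 59.7%, 71.1%, 59.7% and 81.0% of cells, Junb in 54.2%, 51.8%, 45.8% and 77.8%, and Ier2 in 48.6%, 62.7%, 68.1% and 77.8%. These 3 genes also had their highest share in the jejunum plate.

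A few cells carried much of each gene. In duodenum replicate 1 the 8 cells with the most Fos counts held 51.5% of the plate's Fos, and in duodenum replicate 2 the top 9 of 83 held 50.7%.

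For the comparison of jejunum with duodenum, all counts of a plate were added up. No count of genes passing a test is given, since 1 jejunum plate leaves the spread within that tissue unknown. Summed Junb was 316, 260 and 220 CPM in the duodenum plates and 465 in the jejunum plate, which lay above all 3. Its log2 fold change was 0.82 ± 0.44 (SE), with an adjusted p of 0.934 in edgeR. Klf4 was 149, 36.7, 37.6 and 48.5 CPM in the same order, with the jejunum value inside the duodenum range (log2 fold change -0.56 ± 0.86). With 1 plate against 3 the smallest exact permutation p is 0.25. Effects of the tissue, the animal and the plate cannot be told apart here.

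Cells were then divided by Chgb, which encodes the granule protein chromogranin B and is abundant in mature enteroendocrine cells, and by Neurog3, whose product, a basic helix-loop-helix factor, commits progenitors to the endocrine fate. Chgb-high cells had at least 10000 CPM of Chgb and fewer than 5 Neurog3 counts (107 cells, with 22, 34, 18 and 33 in the 4 plates). Chgb-low cells had under 2000 CPM of Chgb and fewer than 5 Neurog3 counts (115 cells, with 41, 32, 26 and 16). Neurog3-positive cells had at least 5 Neurog3 counts and Chgb under 10000 CPM (28 cells, with 3, 7, 15 and 3). At the highest share measured for Sst, other wells could supply up to 7.84 Neurog3 counts, in duodenum replicate 2, where all 7 Neurog3-positive cells held at least 20. In the other plates that share came to under 2 counts, and 0 of the 28 cells lay at or below the value of their plate. A further 22 cells met both the Chgb-high and the Neurog3 limits, and 18 had Chgb between the limits. Chgb-high cells carried enterochromaffin genes. All 9 genes of an enterochromaffin list, Tph1 and Tac1 among them, were called higher than in Chgb-low cells, against 1.13% of all genes (edgeR). The class was not described by these genes alone, since 2 of 9 peptide hormone genes tested were called higher too. Many Chgb-low cells carried secretory markers of another lineage. The plate medians of the summed goblet markers were 4409 to 13413 CPM in Chgb-low cells and 262 to 523 CPM in Chgb-high cells. In Chgb-high cells 4 of the 5 goblet markers tested were called lower, against 214 of 12071 genes (edgeR). Of the 5 immune markers in the table none was abundant enough to be tested, and 5 of the 6 mesenchymal markers stayed at or below 21.4 CPM in both classes. The sixth, Vim, was tested and higher in Chgb-high cells, at 681, 1394, 2252 and 2119 CPM against 5.79, 15.6, 10.2 and 24.8 CPM. Mitochondrial transcripts took a plate median of 3.01% to 6.32% in Chgb-high and 6.03% to 9.60% in Chgb-low cells, and median depth was 369706 to 876416 against 301666 to 612010 counts. Apart from the alternatives reported below for depth and for goblet and Paneth markers, the part of these differences in the results was not tested.

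Several immediate-early genes were higher in Chgb-high than in Chgb-low cells. Fos, Fosb, Jun and Klf6 passed the test, by 3.09-fold, 4.57-fold, 3.43-fold and 3.35-fold. Thus 4 of the 9 members were called higher and 0 lower, against 1.13% of 12071 genes called higher and 2.9% called in either direction (edgeR, counts summed per plate and class, plate as a block). DESeq2 called 7 members higher, against 11.5% of the genes it gave an adjusted p, and limma on means over cells called 8, against 8.7% of genes. Without the plate as a block edgeR called 5, against 2.29% of genes in either direction. Summed CPM was higher in Chgb-high cells in all 4 plates for 8 members, a pattern shown by 21.7% of all genes, and the exception was Klf4. For 7 members every Chgb-high plate lay above every Chgb-low plate, against 9.55% of all genes, the exceptions being Junb and Klf4. At an unadjusted p under 0.05, 8 members were higher, against 9.01% of all genes. The exact sign permutation test over 4 plates gave p = 0.125 for each of those 8 members, the smallest it can give, and 0.5 for Klf4. Since the members were chosen with earlier results of these data known, their shares beside those of all genes are descriptions and not independent support.

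**Figure D2:**
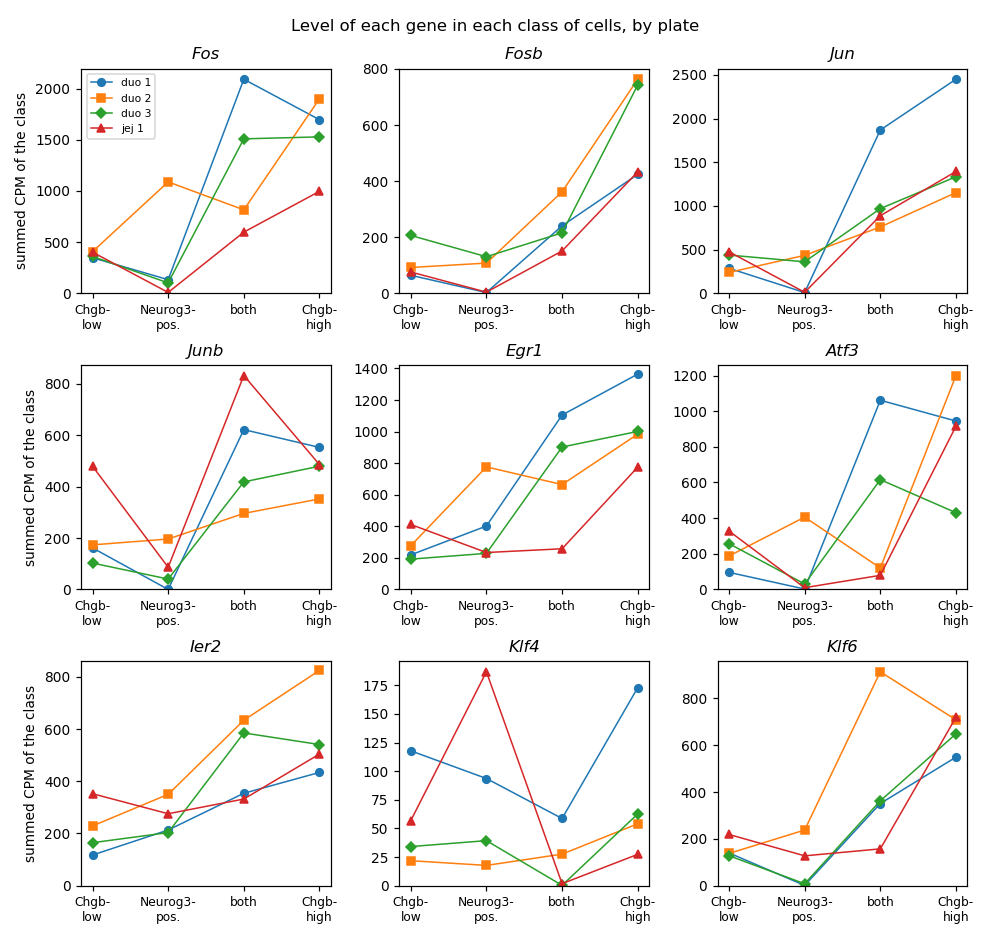
Summed CPM (vertical axes, linear from 0) of each gene in 4 classes of cells, 1 line per plate (duo 1 to duo 3, duodenum replicates; jej 1, jejunum); lines join values of the same plate and imply no course in time. "Both" cells have at least 10000 CPM of Chgb and at least 5 Neurog3 counts. Fos runs from 347 to 406 CPM in Chgb-low and from 996 to 1901 CPM in Chgb-high cells, and Klf4 shows no such step.

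Of the AP-1 genes, Fos was at 1696, 1901, 1528 and 996 CPM in the Chgb-high cells of the 4 plates (duodenum replicates 1 to 3, then jejunum) and at 347, 406, 359 and 401 CPM in the Chgb-low cells. The lowest Chgb-high plate, the jejunum one, lay above the highest Chgb-low plate. The log2 fold change was 1.63 ± 0.22 (SE derived from the test statistic, 4 plates), with an adjusted p of 0.0186 in edgeR. Fosb was at 424, 763, 743 and 433 CPM against 63.8, 91.6, 206 and 75.6 CPM. The fold change was the largest of the 9, at a log2 of 2.19 ± 0.29 (adjusted p 0.0175, edgeR). Chgb-low cells of duodenum replicate 3 were the highest of their class and still below each Chgb-high plate.

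Jun was at 2450, 1152, 1333 and 1394 CPM in Chgb-high cells and at 285, 237, 437 and 474 CPM in Chgb-low cells. Its log2 fold change was 1.78 ± 0.32 with an adjusted p of 0.0474 in edgeR, close to the threshold of 0.05. An antisense gene, Junos, overlaps Jun but held 325 counts in all, against 131090 for Jun. Junb was at 553, 352, 480 and 486 CPM against 162, 173, 103 and 480 CPM, so the classes were well apart in the duodenum plates and nearly equal in the jejunum plate. The log2 fold change of 0.91 ± 0.36 did not pass (adjusted p 0.253, edgeR). Junb overlaps Prdx2 on the other strand (81055 counts against 47429 for Junb), and the strand setting of the counting is not given in the sources used here.

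Egr1 missed the threshold by a little. It was at 1364, 984, 1001 and 775 CPM in Chgb-high cells and at 219, 277, 192 and 412 CPM in Chgb-low cells, with no overlap between the classes. The log2 fold change was 1.59 ± 0.31 with an adjusted p of 0.0555 in edgeR, and over 19 alternatives the adjusted p ran from 0.000301 to 0.195. It was 0.0541 to 0.195 when 1 plate was left out, so none of those 4 fits passed, and 0.0106 when every cell was thinned to 100000 counts. Every one of the 22 Chgb-high cells of duodenum replicate 1 held at least 100 CPM of Egr1, the lowest at 131 CPM.

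Atf3, the stress-response member, was at 945, 1200, 430 and 916 CPM against 95.8, 188, 257 and 328 CPM. Duodenum replicate 3 had the lowest Chgb-high value, and the log2 fold change of 1.71 ± 0.48 did not pass (adjusted p 0.142, edgeR). Ier2 was at 434, 825, 541 and 504 CPM against 117, 229, 165 and 352 CPM, with a log2 fold change of 1.14 ± 0.27 (adjusted p 0.0938, edgeR). As with Jun, Junb, Egr1, Atf3 and Klf6, its highest Chgb-low value was in the jejunum plate.

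The Krüppel-like factor genes differed from each other. Klf6 was at 549, 708, 649 and 719 CPM in Chgb-high cells and at 140, 138, 128 and 219 CPM in Chgb-low cells, the narrowest spread over plates of the 9 ratios (SD 0.31 on the log2 scale). Its log2 fold change was 1.75 ± 0.20 and its adjusted p, 0.0133, was the smallest of the members (edgeR). Klf4 was at 173, 54.1, 62.7 and 27.4 CPM in Chgb-high cells and at 118, 21.8, 34.2 and 56.8 CPM in Chgb-low cells. Its classes overlapped, its log2 fold change was 0.08 ± 0.46 (adjusted p 0.952, edgeR), and its order was opposite in the jejunum plate.

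Fewer members passed when a plate or some of the Chgb-low cells were left out. Leaving out duodenum replicate 1, 2 or 3 left 0 members past the threshold, and leaving out the jejunum plate left 2 (Fos and Klf6), while all fold changes but that of Klf4 kept their sign. The genes called among all tested fell as well, from 350 to between 10 and 177. Of the 115 Chgb-low cells, 65 held 10000 CPM or more of goblet and Paneth markers together. Without them 0 members and 0.979% of genes passed, although Fos (1.48 ± 0.42), Jun (1.56 ± 0.47), Fosb (2.52 ± 0.82) and Klf6 (2.46 ± 0.86) had log2 fold changes of similar or larger size. The 50 other Chgb-low cells had summed Fos of 371, 322, 354 and 942 CPM, and the 65 marker-high cells 337, 474, 366 and 148 CPM. Neither group was the higher one in every plate, and in the duodenum plates both stayed far below the Chgb-high values. In the jejunum plate the 7 other Chgb-low cells reached 942 CPM of Fos, close to the 996 CPM of the Chgb-high cells. Ier2 was likewise close (497 against 504 CPM), and Junb (579 against 486) and Klf4 (57.5 against 27.4) were higher in those 7 cells. Jun (1085 against 1394), Egr1 (504 against 775), Fosb (178 against 433), Atf3 (436 against 916) and Klf6 (375 against 719) were lower.

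Without the TMM scaling the median over all genes moved up by 0.361 on the log2 scale, 5 members and 2.83% of genes were called, and the genes called went from 136 higher and 214 lower to 203 higher and 139 lower. The 4 called members kept their call under both scalings.

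Chgb-high cells were then set against Neurog3-positive cells, which could be done in duodenum replicates 2 and 3 only, since the other plates had under 5 Neurog3-positive cells. No member and none of 11446 genes passed (0.0%, edgeR), while 4 members and 896 genes had an unadjusted p under 0.05. DESeq2 called 3 members higher (Fosb, Atf3 and Klf6), against 6.56% called higher and 8.87% in either direction of the genes it gave an adjusted p, and limma on cell means called 3, against 1.07% of genes. Every member had a positive fitted log2 fold change, from 0.86 ± 1.05 for Klf4 to 3.62 ± 1.48 for Klf6, and the median over members was 1.92, against 0.48 for all genes.

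The values behind these fold changes were uneven between plates. Summed Fos was at 132, 1088, 101 and 7.23 CPM in the Neurog3-positive cells of the 4 plates. In duodenum replicate 2, a single cell of the 7 held 2767 of the 3255 Fos counts and stood at 11611 CPM, the highest Fos level of all 290 cells, and the median of the 7 was 43.4 CPM. Jun was at 6.77, 433, 359 and 9.81 CPM, so the plates with 3 Neurog3-positive cells were near 0 and the other two were not.

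Klf6 was at 1.13, 238, 8.29 and 127 CPM, and 0 of the 15 Neurog3-positive cells of duodenum replicate 3 reached 100 CPM, against 66.7% of its Chgb-high cells. Its log2 fold change of 3.62 thus rests mainly on the low Neurog3-positive value of duodenum replicate 3. Atf3 was at 2.26, 406, 30.6 and 9.81 CPM, Fosb at 2.26, 107, 130 and 3.61 CPM, and Junb at 0, 196, 40.4 and 86.2 CPM. Single cells held much of several sums. They held 293 of 321 Fosb counts in duodenum replicate 2 and 788 of 863 in replicate 3. They also held 178 of 203 Atf3 counts in replicate 3, 315 of 356 Egr1 counts in replicate 1 and 236 of 247 Klf6 counts in the jejunum. Atf3 in replicate 2 was less uneven (561 of 1214). Egr1 and Ier2 were present in Neurog3-positive cells of all plates. Egr1 was at 402, 776, 228 and 234 CPM and Ier2 at 213, 350, 203 and 276 CPM, and all of these values lay within or above the range of the Chgb-low plates. Klf4 was at 93.6, 17.7, 39.3 and 187 CPM, and the jejunum value, from 3 cells, was above those of the Chgb-high and Chgb-low cells of that plate.

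No member passed between Neurog3-positive and Chgb-low cells in duodenum replicates 2 and 3. In edgeR 0 of 9 members and 0.0% of 11559 genes were called, and 0 members and 527 genes had an unadjusted p under 0.05. DESeq2 called 0 members too. Of the 9373 genes it gave an adjusted p, it called 67 higher and 128 lower. Egr1 had a log2 fold change of 0.80 ± 0.54 and Klf6 of -1.63 ± 1.40 (adjusted p 1.0 for each, edgeR). With standard errors of this size a 2-fold difference was not detectable. A shared set of Chgb-high or Chgb-low cells enters more than 1 of the class comparisons, so their results are not independent.

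The 22 cells that met both limits are shown for completeness, without a test. Their plate medians of the summed CPM of the 9 members were 4572, 4212, 4337 and 3307, against 7110, 5392, 5022 and 4587 in Chgb-high cells. Chgb-low cells had 867, 614, 980 and 1674, and Neurog3-positive cells below the Chgb limit had 464, 1946, 953 and 852. In each plate the cells with both lay below the Chgb-high cells and above the other two classes. By gene, Fosb, Jun, Egr1 and Klf4 were lower in these cells than in Chgb-high cells in every plate, and the other 5 in some plates only. Klf4 was at 58.7, 27.6, 0.30 and 1.78 CPM.

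**Figure D3:**
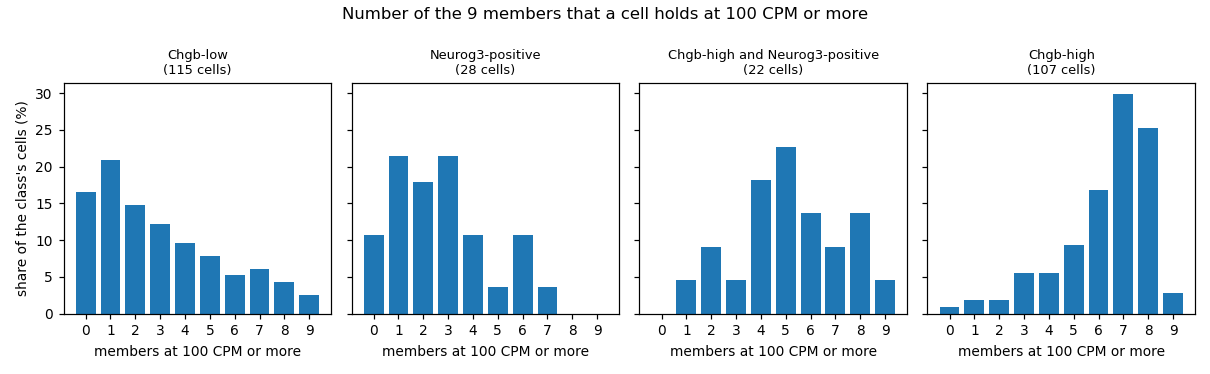
Share of the cells of a class (vertical axis, percent) by the number of the 9 members that a cell held at 100 CPM or more (horizontal axis), for 115 Chgb-low, 28 Neurog3-positive, 22 Chgb-high and Neurog3-positive and 107 Chgb-high cells, pooled over plates. The median is 2 in Chgb-low, 2.5 in Neurog3-positive, 5 in the cells with both and 7 in Chgb-high cells.

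Chgb-high cells held more of the members at 100 CPM or more than Chgb-low cells did. A median of 7 members reached 100 CPM in a Chgb-high cell and of 2 in a Chgb-low cell. At least 6 members did so in 72.7%, 73.5%, 72.2% and 78.8% of the Chgb-high cells of the 4 plates, and in 7.32%, 21.9%, 23.1% and 31.3% of the Chgb-low cells. The lowest Chgb-high plate thus stood above the highest Chgb-low plate. Both classes held exceptions, since 5 of 107 Chgb-high cells had 0 to 2 members at that level and 21 of 115 Chgb-low cells had 6 or more. These counts alone do not show whether members were high together within a class.

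**Figure D4:**
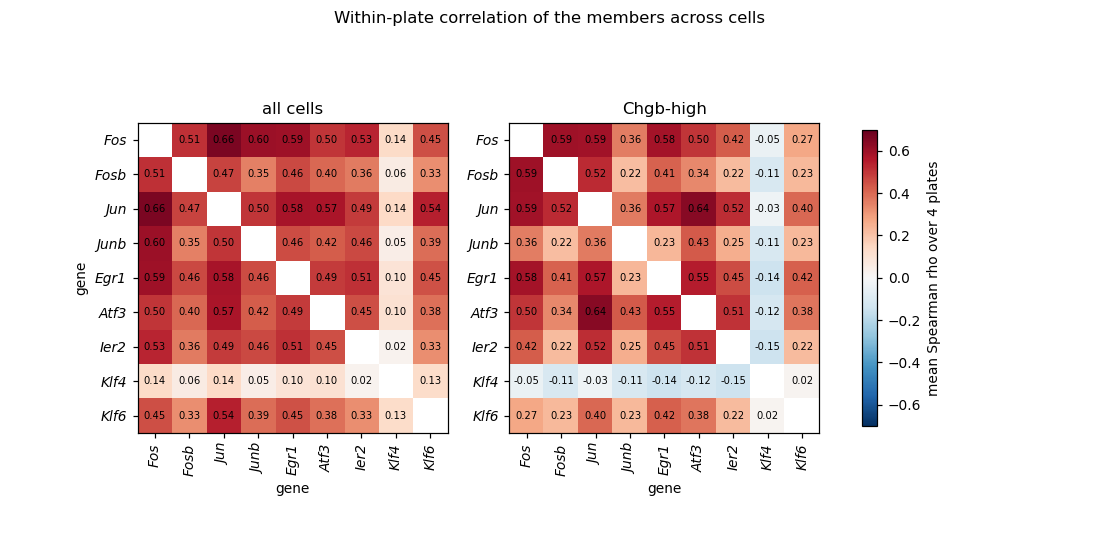
Spearman correlation across cells within a plate, averaged over 4 plates (colour and printed value), for each pair of the 9 genes (both axes), in all cells and in Chgb-high cells. Fos and Jun show the highest value in all cells, 0.66, and the row and column of Klf4 stay at 0.14 or below.

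Across the cells of a plate the 28 pairs without Klf4 had Spearman correlations from 0.326 to 0.659 (mean over the 4 plates of 63 to 83 cells, median pair 0.467). Fos with Jun was the highest at 0.659, followed by Fos with Junb at 0.598, 2 pairs of AP-1 partners, and by Fos with Egr1 at 0.592. The 8 pairs with Klf4 had 0.022 to 0.137. Within Chgb-high cells alone the 28 pairs had 0.218 to 0.638, with Jun and Atf3 highest, and the Klf4 pairs -0.146 to 0.017. Within Chgb-low cells the ranges were 0.187 to 0.618 and 0.164 to 0.326. Co-variation of the 8 was thus seen inside each class and not only between the classes. Cells of a plate share their library pool and differ in depth, and the mean log2(CPM + 10) of the 9 members had a mean correlation of 0.222 with a cell's total counts.

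**Figure D5:**
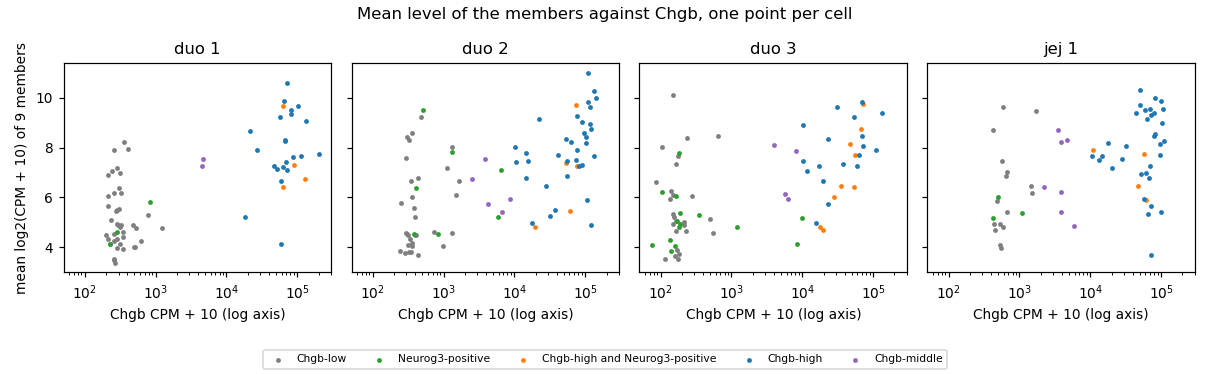
Mean log2(CPM + 10) of the 9 members (vertical axis) against Chgb CPM plus 10 (horizontal log axis), 1 point per cell, 1 panel per plate (duo 1 to duo 3, duodenum; jej 1, jejunum), coloured by class. Chgb-high cells (right) mostly lie above Chgb-low cells (left), with cells at high and low member levels in both; the within-plate correlation has a mean of 0.55.

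That mean member level was correlated with Chgb across the cells of a plate (Spearman 0.626, 0.592, 0.525 and 0.458 in the 4 plates). Within Chgb-high cells the values were 0.36, 0.461, 0.445 and 0.182. Against the mitochondrial share it was -0.513 on average over all cells and -0.065 within Chgb-high cells. Against the summed heat shock genes it was 0.375 over all cells and 0.25 within Chgb-high cells. Peptide hormone genes showed the opposite sign inside the Chgb-high class, at -0.197, -0.45, -0.203 and -0.106. Counts from other wells enter these hormone sums. In the jejunum plate 1 well held 643177 of 706160 Gip counts, and 92.1% of cells reached 100 CPM of Gip. The part of such counts in the sign was not tested.

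Among the 10 genes whose level across cells was most like the mean of the 9 members were Arc (0.588), Chgb (0.55), Ppp1r15a (0.537), Gnai2 (0.519), Rhob (0.51), Dusp1 (0.509), Dusp5 (0.506) and Malat1 (0.494), by mean within-plate Spearman correlation over 4 plates among 2499 genes. The median gene had 0.05. Arc, Ppp1r15a, Rhob and Dusp1 were in the list of 40 other immediate-early genes described next. That list had 11 genes among the 2499, with a median of 0.466. Its lowest were Klf10 (0.125), Btg1 (0.04) and Gadd45a (-0.218). Dusp1 and Dusp5 encode phosphatases that switch off MAP kinases. The 5 least alike all encoded ribosomal proteins, from Rpl23 (-0.636) to Rpl17 (-0.663). Values in CPM are shares of a cell's counts, so a gene that takes a larger share lowers the others.

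Other immediate-early genes were examined in Chgb-high against Chgb-low cells from a list of 40, of which 39 were tested. Of these, 3 were higher and 0 lower, with a median log2 fold change of 0.81 against 0.03 over all genes (edgeR, which called 1.13% of all genes higher). DESeq2 called 13 higher and 1 lower, against 11.5% and 8.58% of the genes it gave an adjusted p. Ppp1r15a, which encodes a phosphatase subunit of the stress response, was at 298, 302, 216 and 113 CPM in Chgb-high cells and at 24.3, 7.15, 8.94 and 13.7 CPM in Chgb-low cells (log2 fold change 3.80 ± 0.46, adjusted p 0.0153). Arc, known from activated neurons, was at 725, 413, 238 and 477 CPM against 81.9, 49.8, 9.94 and 118 CPM (2.83 ± 0.41, adjusted p 0.0236). Nr4a1, which encodes an orphan nuclear receptor, was at 280, 79.3, 226 and 150 CPM against 4.32, 5.88, 26.9 and 1.65 CPM (4.45 ± 0.81, adjusted p 0.0477). In each of the 3 the classes did not overlap, as in 9.55% of all genes. The 3 were picked by the test on these same values, so this adds no separate support.

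Heat shock genes, a group that also responds to handling, were fitted with both signs. Of 9 tested 0 were called in edgeR, which with 2.9% of all genes called is near the background, and 3 had an unadjusted p under 0.05. These were Hspe1 (-1.34 ± 0.29, adjusted p 0.0748, edgeR), Dnajb1 (-1.01 ± 0.39, adjusted p 0.243, edgeR) and Hsp90aa1 (0.73 ± 0.28, adjusted p 0.243, edgeR). DESeq2 called Hspe1, which encodes a mitochondrial chaperonin subunit, lower (-1.31 ± 0.36, adjusted p 0.00319, DESeq2) and no other of the 9. Hspa1a and Hspa1b got no adjusted p there, with log2 fold changes of 2.10 ± 3.42 and 2.04 ± 3.44. Their response is therefore not covered by these counts. The median log2 fold change of the 9 was 0.02. The summed level of the 11 heat shock genes in the table had a higher plate median in Chgb-high cells in all 4 plates, at 5786, 6878, 3656 and 5049 CPM against 3515, 3306, 3330 and 3920 CPM, and this sum was not tested. Hsp90ab1, which took the most counts of them, was at 3426, 3505, 1766 and 2541 CPM against 2308, 1913, 2026 and 2177 CPM (log2 fold change 0.02 ± 0.24 after TMM scaling, adjusted p 0.982, edgeR). The 2 Hsp90 genes were picked after their values had been seen. Among 25 tested genes of the EGF, MAP kinase, SRF and CREB pathways upstream, 1 was higher and 0 lower in edgeR, against 1.13% of all genes called higher, and 7 were higher and 0 lower in DESeq2, against 11.5%. The median log2 fold change was 1.12. The gene called by edgeR was Mapk14, which encodes the stress-activated kinase p38 alpha, at 110, 184, 89.7 and 127 CPM against 18.0, 22.1, 14.2 and 31.8 CPM (2.23 ± 0.35, adjusted p 0.0288, edgeR).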

How the data were processed

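Single cells were measured in 4 plates, with polyadenylated RNA made into libraries by the BD Precise WTA kit, per the labels' protocols. The values are raw counts, deposited by the authors as a single gene-by-cell table of the wells they kept. The submitters' processing notes list bcl2fastq 2.17.1.14, cutadapt 1.10, Bowtie2 2.2.8, STAR 2.5.3a, UMI-tools 0.4.4, HTSeq 0.6.1 and mm10, without roles. The largest count was 643177, and 27.9% of the values above 0 were 1. Columns were matched to samples by the experiment and pool numbers, with 0 left over. Plate and tissue labels rest on that match. Symbols were found for 29120 of 29161 identifiers. No cell was removed and no doublet caller was run, since wells received 1 sorted cell.

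Counts of the cells of a class were summed per plate, using a plate where each class had 5 or more cells, and the plate was the replicate. Nothing in the labels ties a plate to more than 1 animal. In the class comparisons the block removes differences between plates. Their p-values therefore set the class difference against how much it varied from plate to plate, with dispersion estimated using all genes. Main tests used edgeR 4.0.16 (R 4.3.3) with the quasi-likelihood fit, TMM, filterByExpr, the plate as a block (both classes of a plate come from the same sorted pool) and Benjamini-Hochberg adjustment over all genes tested, at 0.05. Jejunum against duodenum had no block. Each SE given for edgeR is the size of the log2 fold change over the square root of the test's F statistic. It is not the spread of the plate ratios. DESeq2 1.42.0 and limma 3.58.1 (on cell means of log2(CPM + 10)) were alternatives. The edgeR fits were also run on simulated counts, which had 1 dispersion for all genes and no plate effect. That setting cannot show how the fits handle differences between plates. Per-cell correlations are descriptions. Motif letters were searched in RefSeq promoter windows, and gene positions came from GENCODE M21 on GRCm38. The members and all gene lists were chosen with earlier results of these data known. Named genes were the 9 members, list genes past the threshold (at most 4 per direction) or else the 2 with the smallest p, and the 10 most and 5 least alike genes, some of which are not reported here. Gip and Sst, the division of Chgb-low cells by goblet and Paneth markers, and the values for cells with both markers were added after the data had been seen.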

Additional observations from a re-analysis of the deposited data

Results flagged for a closer look

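Ier2 was singled out because 1 of its 4 plates stood apart. The log2 ratio of its summed CPM in Chgb-high to Chgb-low cells was 0.517 in jejunum replicate 1 and reached 1.89 in the duodenum plates, and the gap was larger than expected of 4 values. Chance singles out about 1 in 20 such groups. Klf4 was singled out because the same ratio was above 0 in all 3 duodenum plates and -1.05 in the jejunum plate. That difference was not tested, and the jejunum side is 1 plate.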

How the results depend on the processing

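For Chgb-high against Chgb-low cells, 4 members passed. The count was 8 with limma on cell means, 7 with DESeq2 and 0 without Chgb-low cells high in goblet and Paneth markers, and it ranged from 0 to 2 when 1 plate was left out. In the same order, the count over all genes went from 350 to 1439, 2679, 107 and 10 to 177. Without the replicate block 5 members and 2.29% of genes passed in that comparison, and 0 members passed in both comparisons with Neurog3-positive cells. Against Neurog3-positive cells, 0 members passed, and 3 did with limma (1.07% of all genes), 3 with DESeq2 (8.87%), 3 when Neurog3-positive began at 1 count (2.49%) and 1 when such cells were taken whatever their Chgb (0.592%). The log2 fold change of Klf4 turned to -0.30 with classes by Chgb alone, -0.20 without duodenum replicate 2 and -0.03 without duodenum replicate 3, within a leave-one-out range up to 0.49. Klf6 in Neurog3-positive against Chgb-low cells turned to 0.26 with Neurog3-positive cells whatever their Chgb and 0.66 without the marker-high cells. Klf4 in jejunum against duodenum turned to 0.34 without duodenum replicate 1, the lowest such value being -0.90. The cause was not tested. Of 171 fold changes recomputed for Chgb-high against Chgb-low cells, 135 kept direction and side of the threshold. Shares of cells at 5 counts or more, a limit that counts from other wells can reach, moved beyond their interval in 37 of 72 alternatives. Comparisons with Neurog3-positive cells that left out a plate, or asked for 10 cells, had no residual degrees of freedom and gave no value. With 2 to 4 plates, and 28 Neurog3-positive cells, moderate differences could not be detected.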
